A study of Mus musculus with 9 samples.

Results

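The genes described here are 9 reported targets of the transcriptional coactivators YAP and TAZ, picked by symbol from the 55450 genes of the count table. They are 5 members of the CCN family (Ccn1, Ccn2, Ccn3, Ccn4 and Ccn5, formerly Cyr61, Ctgf, Nov, Wisp1 and Wisp2) with Ankrd1, Amotl1, Amotl2 and Ajuba. RNA was sequenced from live EYFP+ cells that were sorted from the mammary glands of adult nulliparous mice, in 9 libraries of 3 genotypes with 3 libraries each. Control mice carried lsl-EYFP and K8CreERT2. Those labelled LATS1/2-KO carried floxed Lats1 and Lats2 alleles (LATS1/2f/f) with the same lsl-EYFP and K8CreERT2, and those labelled LATS1/2-Sox9-KO carried Sox9f/f in addition. All mice, controls included, received 2 mg of tamoxifen on 5 consecutive days, and the glands were taken 7 days after the last dose. The Cre recombinase is driven by the Krt8 promoter, so that EYFP marks Keratin 8-positive luminal cells in which Cre acted, and their progeny. Between 44167762 and 61967651 read pairs per library had been assigned to genes.

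LATS1 and LATS2 are the kinases at the end of the Hippo pathway. They phosphorylate YAP and TAZ and so keep them out of the nucleus, where YAP and TAZ bind DNA through the TEAD factors. Ccn1, Ccn2 and Ankrd1 are among the target genes most often used to read YAP/TAZ activity. CCN proteins are secreted matricellular proteins that bind integrins, heparan sulfate proteoglycans and LRP receptors. Ankrd1 encodes an ankyrin repeat protein of muscle and of injured tissue that acts in the nucleus and at the sarcomere. Amotl1 and Amotl2 encode angiomotin-like scaffolds of cell junctions that bind YAP and restrain it, and Ajuba encodes a LIM protein that binds LATS kinases at junctions.

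The targeted genes were examined first. Raw counts of Lats1 were 4890, 5228 and 4773 in the control libraries, 2084, 2270 and 2561 in the libraries labelled LATS1/2-KO, and 2217, 1851 and 1876 in those labelled LATS1/2-Sox9-KO. Raw counts of Lats2 were 896, 763 and 980 in control, 1252, 1693 and 1889 in the libraries labelled LATS1/2-KO, and 2108, 1586 and 1361 in those labelled LATS1/2-Sox9-KO. Lats1 was thus lower in all 6 libraries of the deletion genotypes, whereas Lats2 was not lower in any of them. Of the 6971 exonic bases of Lats2, 2955 are shared with the gene Gm49361 on the same strand, which had 0 to 5 counts per library, so the counts of Lats2 may leave out reads of that stretch. Counts over whole genes do not separate a transcript that has lost its floxed exons from an intact one, so the groups are named by their labels. The terms deletion genotypes, deletion groups and deletion libraries stand for the labels LATS1/2-KO and LATS1/2-Sox9-KO. Raw counts of Sox9 were 20100, 17591 and 17302 in control, 7184, 11220 and 13632 in the libraries labelled LATS1/2-KO, and 9493, 6780 and 7092 in those labelled LATS1/2-Sox9-KO, so that the deletion genotypes overlapped. Between them Sox9 had a log2 fold change of -0.40 (adjusted p = 0.25 by edgeR).

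The 9 genes lie on 7 chromosomes of GRCm38. Among the CCN genes, Ccn1 lies on chromosome 3 from 145646976 to 145649981 (minus strand), Ccn2 on chromosome 10 from 24595442 to 24598683 (plus) and Ccn5 on chromosome 2 from 163820861 to 163833146 (plus). Ccn3 (54745702 to 54754039) and Ccn4 (66891320 to 66923201) are both on the plus strand of chromosome 15. Ankrd1 lies on the minus strand of chromosome 19 from 36111961 to 36120099. Amotl1 (14541966 to 14645056, minus) and Amotl2 (102716672 to 102733418, plus) share chromosome 9, and Ajuba lies on the minus strand of chromosome 14 from 54567472 to 54577558. Exons of the antisense gene Gm15270 overlap 665 exonic bases of Ccn2, and it is not known here whether reads of that stretch were told apart, since pairs of the same strand are said to have been counted from a kit that does not mark strand. Gm15270 had mean normalised counts of 15.1 in control and 192 in the libraries labelled LATS1/2-KO. The exons of the other 8 genes overlap no exon of another annotated gene.

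RefSeq promoter sequences on GRCm38.p6 matched 5 of the 9 genes (Ccn1, Ankrd1, Amotl1, Amotl2 and Ajuba). The core of the TEAD motif, CATTCC or GGAATG on the strand of the gene, was searched in the 250 bases before each RefSeq start. Ccn1 and Amotl2 each held 1 match, Ajuba and Ankrd1 each held 2, and these letters were not in the window of Amotl1. Over 32851 promoters, 12.6% of the windows held a match and 1.02% held at least 2. The AP-1 motif TGANTCA (6.75% of promoters) and the CArG box bound by SRF (1.47%) were not in any of the 5 windows, on either strand, so no motifs overlapped. The windows of Amotl1, Amotl2 and Ankrd1 overlap annotated exons, so that a match there can lie in transcribed sequence. A match is a description of the sequence, since binding was not measured here. The windows of Ccn1 (chr3:145649986-145650235) and Ajuba (chr14:54577662-54577911), both on the minus strand, are shown whole because they contrast the gene of highest level per kb among the 9 in control cells with a gene at the 53.9th percentile of tested genes there. Capitals mark the TEAD core, which ends 98 bases before the start of Ccn1 and 181 and 159 bases before that of Ajuba.
Ccn1 promoter: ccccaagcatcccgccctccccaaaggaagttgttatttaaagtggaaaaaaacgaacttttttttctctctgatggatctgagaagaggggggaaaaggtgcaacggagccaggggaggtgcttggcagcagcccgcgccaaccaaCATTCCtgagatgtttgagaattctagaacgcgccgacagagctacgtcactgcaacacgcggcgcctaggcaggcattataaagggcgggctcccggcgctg
Ajuba promoter: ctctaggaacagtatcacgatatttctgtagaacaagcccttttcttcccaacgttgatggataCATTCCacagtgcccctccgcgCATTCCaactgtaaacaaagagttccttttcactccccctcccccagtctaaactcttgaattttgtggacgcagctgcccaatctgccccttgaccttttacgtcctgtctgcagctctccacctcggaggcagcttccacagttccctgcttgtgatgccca
For Amotl2 (chr9:102717727-102717756, plus strand) and for Ankrd1 (chr19:36120037-36120066 and chr19:36119950-36119979, minus strand) the 30 bases around each match are shown, because these are the remaining matches of the set. The match of Amotl2 ends 60 bases before its start, and those of Ankrd1 end 205 and 118 bases before its start and read GGAATG.
Amotl2: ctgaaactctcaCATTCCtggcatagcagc
Ankrd1 distal: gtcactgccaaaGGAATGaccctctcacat
Ankrd1 proximal: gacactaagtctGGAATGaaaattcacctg

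In the libraries labelled LATS1/2-KO, 8 of the 9 genes rose over control (Ccn1, Ccn2, Ccn4, Ccn5, Ankrd1, Amotl1, Amotl2 and Ajuba), by between 2.67-fold (Amotl1) and 834-fold (Ankrd1). The same 8 were higher than control in the libraries labelled LATS1/2-Sox9-KO. None of the 8 was called between the deletion genotypes, and Ccn3 was too low to test in any comparison. A gene was called when it changed by more than 2-fold with a Benjamini-Hochberg adjusted p of at most 0.05, computed by the quasi-likelihood method of edgeR over 19357 genes. Calls were common in this comparison, with 34.6% of all genes tested called for LATS1/2-KO, made up of 17.1% higher and 17.5% lower. For LATS1/2-Sox9-KO the share was 37.4%, made up of 17.8% higher and 19.6% lower. Ccn4 passed the filter on low counts only through the deletion groups and therefore had to differ. Counts and medians over the 8 tested genes against control include Ccn4, but its call is not evidence of a change. Nothing in the labels says that the libraries of a group came from separate mice, so p-values measure the spread between these libraries, which may be technical. In sorted bulk cells, a change in the share of cells that express a gene and a change in RNA per cell cannot be told apart.

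Ccn1 encodes a secreted integrin ligand that is also an immediate early gene of many cell types. Its normalised counts, which are counts scaled to the mean effective library size, were 42229, 39988 and 54145 in control, 103568, 117772 and 151456 in the libraries labelled LATS1/2-KO, and 153243, 82545 and 75453 in those labelled LATS1/2-Sox9-KO. Every library of the deletion genotypes lay above every control library, and replicate 1 of the LATS1/2-Sox9-KO group stood well above its group's other libraries. The log2 fold change over control was 1.45 (standard error 0.27, 95% interval 0.85 to 2.05, adjusted p = 0.00119 by edgeR) for LATS1/2-KO. For LATS1/2-Sox9-KO it was 1.19 (standard error 0.27, interval 0.59 to 1.79, edgeR adjusted p = 0.00336), and without that replicate 1 it was 0.82, below the threshold of 1. Ccn1 was the most abundant of the 9 genes in control cells and, with Amotl1, had the smallest fold changes.

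Ccn2, connective tissue growth factor, is a close relative of Ccn1 that promotes matrix production. Its normalised counts were 1399, 1047 and 966 in control, 78001, 215953 and 144855 in the libraries labelled LATS1/2-KO, and 103832, 89847 and 64233 in those labelled LATS1/2-Sox9-KO. No library of a deletion genotype came near the control range, and the deletion genotypes overlapped each other. Its log2 fold change over control came to 7.01 (edgeR adjusted p = 2.22e-06, standard error 0.42) for LATS1/2-KO and 6.24 (standard error 0.41, adjusted p = 1.96e-06) for LATS1/2-Sox9-KO. Of the 8 tested genes, Ccn2 and Ccn4 varied most among the libraries labelled LATS1/2-KO, with coefficients of variation of 47.2% and 79.2%.

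Ccn4, first known as a Wnt-induced secreted protein, was nearly absent from control cells, with raw counts of 6, 6 and 0. Its raw counts were 1715, 398 and 738 in the libraries labelled LATS1/2-KO and 697, 753 and 983 in those labelled LATS1/2-Sox9-KO. All 6 libraries of the deletion genotypes had at least 398 counts. The log2 fold changes were 7.56 (95% interval 5.76 to 9.37) and 7.31 (5.52 to 9.11), and these intervals were the widest of the 8. No adjusted p is given, since Ccn4 passed the filter only through the deletion groups. The value for LATS1/2-KO was 6.72 without LATS1/2-KO replicate 1, the library with the most counts.

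Ccn5 lacks the carboxy-terminal domain of the other CCN proteins. Its normalised counts were 2455, 2218 and 2630 in control, 13976, 29418 and 16734 in the libraries labelled LATS1/2-KO, and 16564, 21884 and 22634 in those labelled LATS1/2-Sox9-KO. The deletion genotypes overlapped each other and lay above all control libraries. The log2 fold changes of 3.04 (95% interval 2.45 to 3.64, adjusted p = 1.3e-05 by edgeR) and 3.06 (2.47 to 3.66, adjusted p = 9.12e-06) were nearly equal.

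Ccn3 had between 2 and 12 raw counts in each of the 9 libraries, namely 2, 4 and 8 in control, 8, 2 and 7 in those labelled LATS1/2-KO, and 12, 2 and 2 in those labelled LATS1/2-Sox9-KO. The 3 groups overlapped fully. At this depth a small difference in Ccn3 was not detectable, whereas a rise like that of Ccn4, from control counts as low to at least 398, was not seen. Ccn6, the family member outside the list, had 0 to 9 counts and was not tested either.

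Ankrd1 had the largest fold change of the 9 genes. Its normalised counts were 23.2, 19.3 and 29.9 in control, 17065, 28576 and 14760 in the libraries labelled LATS1/2-KO, and 24110, 21135 and 19159 in those labelled LATS1/2-Sox9-KO. The control values were close to absence, and the deletion genotypes overlapped each other, with the wider spread among the libraries labelled LATS1/2-KO. Log2 fold changes of Ankrd1 were 9.70 (standard error 0.35, adjusted p = 1.48e-07 by edgeR) and 9.80 (standard error 0.35, adjusted p = 1.12e-07). Its relatives of the muscle ankyrin repeat family were not called. Ankrd2 had a log2 fold change of -0.79 (adjusted p = 0.351 by edgeR) in the LATS1/2-KO comparison, and Ankrd23 one of -0.98 (adjusted p = 0.0376), short of the fold threshold. In LATS1/2-Sox9-KO over control they had -0.30 (adjusted p = 0.724 by edgeR) and 0.11 (adjusted p = 0.811). Between the deletion genotypes Ankrd23 was at 1.08 (adjusted p = 0.101 by edgeR), higher in LATS1/2-Sox9-KO without overlap. The counts of Ankrd23 may be incomplete, since 2109 of its 2697 exonic bases are shared with the gene Gm42417 on the same strand.

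The junctional regulators followed. Normalised counts of Amotl1 were 4576, 4265 and 1998 in control, 9784, 8134 and 10998 in the libraries labelled LATS1/2-KO, and 11007, 9621 and 9978 in those labelled LATS1/2-Sox9-KO. Control replicate 3 stood below the other control libraries, and every deletion library lay above all 3. The log2 fold changes were 1.42 (95% interval 0.82 to 2.01, adjusted p = 0.00127 by edgeR) and 1.5 (0.91 to 2.09, adjusted p = 0.000816), and 1.11 for LATS1/2-KO without control replicate 3.

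Amotl2 had normalised counts of 9213, 7918 and 8234 in control, 32910, 25548 and 35039 in the libraries labelled LATS1/2-KO, and 48883, 40295 and 37827 in those labelled LATS1/2-Sox9-KO. It was the one gene of the 9 for which the 3 genotypes separated fully, with control lowest and LATS1/2-Sox9-KO highest. Over control, log2 fold changes were 1.88 (95% interval 1.55 to 2.22, adjusted p = 7.78e-06 by edgeR) and 2.32 (1.98 to 2.66, adjusted p = 2.04e-06).

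Ajuba had normalised counts of 832, 667 and 778 in control, 8629, 6094 and 9211 in the libraries labelled LATS1/2-KO, and 11555, 8441 and 8508 in those labelled LATS1/2-Sox9-KO. The deletion genotypes overlapped each other and lay far above all control libraries. Log2 fold changes of Ajuba were 3.39 (standard error 0.20, adjusted p = 2.17e-06 by edgeR) and 3.65 (standard error 0.20, adjusted p = 8.79e-07).

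**Figure D1:**
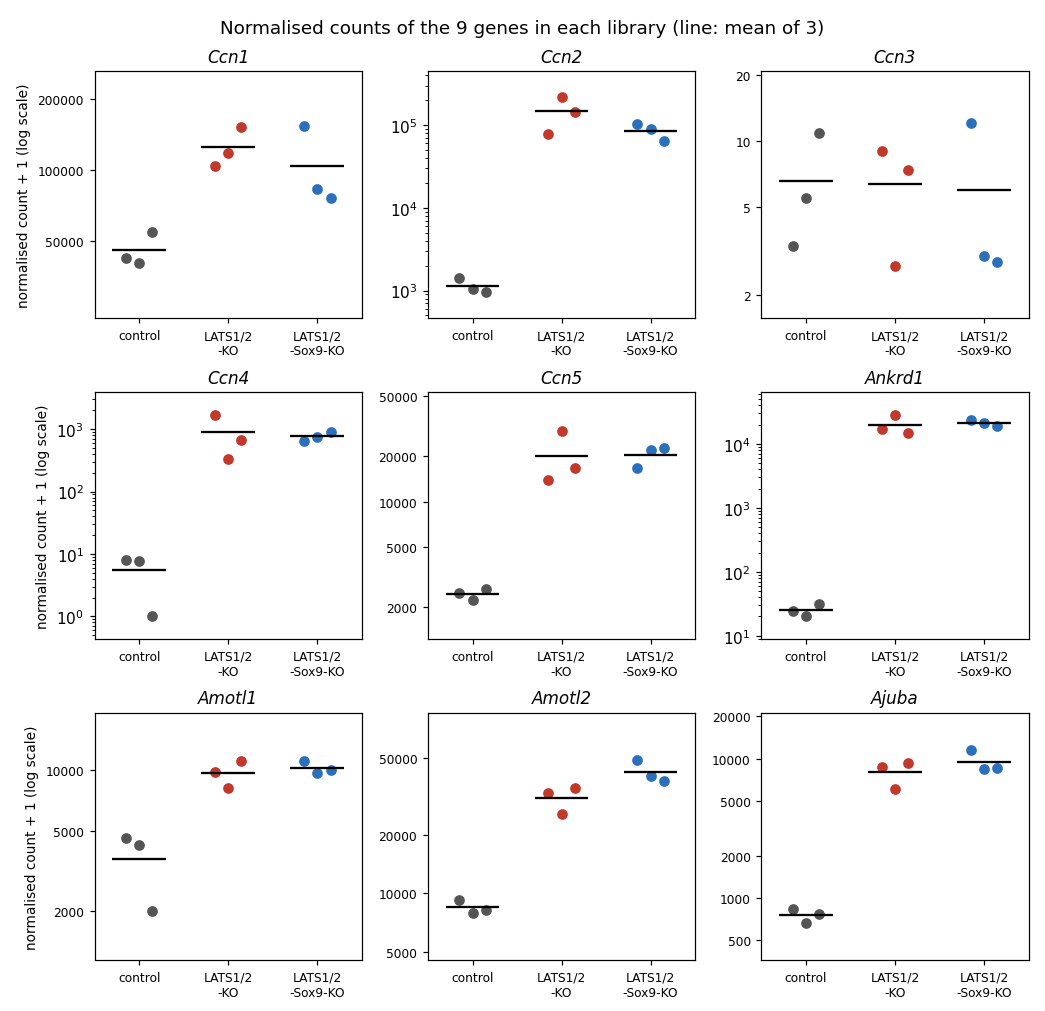
Normalised counts plus 1 (log axes, scaled separately for each gene) of the 9 genes in each of the 9 libraries, with points for libraries in the order of their replicate numbers and a line for the mean of 3. In 8 panels every library of the deletion genotypes lies above the 3 control libraries, and in that of Ccn3 the groups overlap.

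The 8 genes tested did not overlap control in either comparison. This was also true of 31.3% of all tested genes, in the direction of higher counts, for LATS1/2-KO and of 34.9% for LATS1/2-Sox9-KO. The median log2 fold change of the 8 was 3.22 for LATS1/2-KO and 3.36 for LATS1/2-Sox9-KO, beside 0.039 and 0.013 over all genes tested. These comparisons share the control libraries, so their likeness is not independent evidence. Together the 9 genes took up 0.106% to 0.125% of all counts in control libraries, 0.524% to 0.825% in those labelled LATS1/2-KO and 0.439% to 0.643% in those labelled LATS1/2-Sox9-KO.

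The third comparison asks whether these genes differed in mice that carried Sox9f/f in addition to LATS1/2f/f. Between the deletion genotypes 3.71% of all genes tested were called, 1.55% with higher and 2.16% with lower counts in LATS1/2-Sox9-KO. None of the 8 genes was called by edgeR, and at an unadjusted p under 0.05 the test passed 2 of them, Ccn2 and Amotl2, beside 22.6% of all genes tested. DESeq2 also called none of the 8. The intervals of Ccn1 (log2 fold change -0.26, 95% interval -0.85 to 0.33), Ccn5 (0.02, -0.53 to 0.57), Ankrd1 (0.09, -0.41 to 0.59), Amotl1 (0.08, -0.50 to 0.66) and Ajuba (0.25, -0.15 to 0.65) kept any difference under 2-fold. That of Ccn4 (-0.25, -1.44 to 0.94) did not.

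For Ccn2 and Amotl2 the intervals left out 0, although the adjusted p did not pass. Ccn2 had a log2 fold change of -0.77 (95% interval -1.49 to -0.04, adjusted p = 0.195 by edgeR), with overlapping libraries, since LATS1/2-KO replicate 1 lay among those of LATS1/2-Sox9-KO. Without that library the log2 fold change of Ccn2 was -1.07 and passed both thresholds (adjusted p = 0.0301 by edgeR). Without the 4 libraries that held adipocyte transcripts, described with the cell type markers, it was 0.46 (adjusted p = 0.489). That value sets 1 library against 1, the lowest of the LATS1/2-KO group against the highest of the LATS1/2-Sox9-KO group, so its sign was fixed by which libraries were kept. Amotl2 had a log2 fold change of 0.44 (0.12 to 0.77, adjusted p = 0.104 by edgeR) and did not overlap, as was true of 14.6% of all tested genes in that direction.

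**Figure D2:**
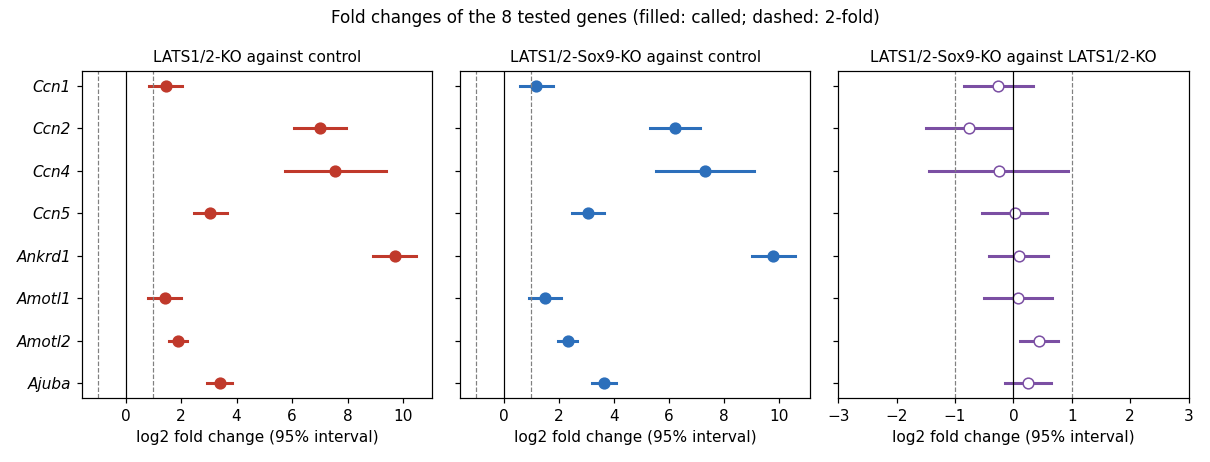
Log2 fold changes of the 8 tested genes with 95% intervals in the 3 comparisons, with filled points for called genes and dashed lines at a 2-fold change. All 8 lie to the right of 0 in both comparisons with control, and between the deletion genotypes none is called and only the intervals of Ccn2 and Amotl2 leave out 0.

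To compare genes with each other, levels were expressed as normalised CPM per kb of annotated exon. In control cells Ccn1 led with 418 ± 70.0 (SD, n = 3), which placed it above 99.6% of tested genes. Amotl2 (25 ± 2) and Ccn5 (23.5 ± 2) came next and overlapped, followed by Ccn2 (7.38 ± 1.5), Amotl1 (6.67 ± 2.6) and Ajuba (3.87 ± 0.428), where neighbours also overlapped. Ankrd1 (0.155 ± 0.0345), Ccn3 (0.0363 ± 0.0254) and Ccn4 (0.0153 ± 0.0133) were near the bottom of the scale. In control cells Amotl2 was at the 88.4th and Ccn5 at the 87.6th percentile of tested genes, so 3 of the 9 genes lay among the more abundant ones there.

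In the libraries labelled LATS1/2-KO the order of levels per kb was Ccn1 (1143 ± 226), Ccn2 (950 ± 448), Ccn5 (194 ± 79.5), Ankrd1 (130 ± 47.7), Amotl2 (92.1 ± 14.7), Ajuba (40.7 ± 8.45), Amotl1 (17.8 ± 2.65), Ccn4 (3.04 ± 2.41) and Ccn3 (0.0348 ± 0.0213). Neighbours overlapped between Ccn1 and Ccn2, between Ccn5 and Ankrd1 and between Ankrd1 and Amotl2. Ankrd1 thus moved from the 13.7th to the 98.2nd percentile of tested genes, and Ccn2 from the 66.5th to the 99.9th. In those labelled LATS1/2-Sox9-KO the order was the same, and only Ankrd1 (138 ± 16.0) and Amotl2 (125 ± 17.1) overlapped among neighbours. Ccn4, at the 2.66th percentile in control, reached only the median level of tested genes in the deletion genotypes despite its large fold change (50.3rd and 48.1st percentiles). A ranking by the longest transcript gave the same order of mean levels, with higher levels for Ankrd1 (185 in place of 130 for LATS1/2-KO) and Amotl2 (131 in place of 92.1).

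The make-up of the CCN family changed with these levels. Ccn1 made up 92.2%, 92.8% and 94.0% of the summed level per kb of the 6 CCN genes in control libraries, 59.5%, 39.1% and 55.8% in those labelled LATS1/2-KO, and 62.8%, 48.8% and 52.1% in those labelled LATS1/2-Sox9-KO. Ccn2 made up 2.16%, 1.71% and 1.18%, then 31.6%, 50.6% and 37.7%, and then 30%, 37.5% and 31.3%. Both shares separated control from the deletion genotypes, which overlapped each other. An exact permutation test of 3 against 3 libraries cannot go below a two-sided p of 0.1, so these shares were not tested. The level per kb of Ccn2 relative to that of Ccn1 was 0.0181 ± 0.0054 (SD, n = 3) in control, 0.833 ± 0.405 in LATS1/2-KO and 0.616 ± 0.146 in LATS1/2-Sox9-KO. The summed CCN level per kb was 449 ± 71.1, 2290 ± 613 and 1712 ± 476.

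The angiomotin family showed a comparable change of composition through Amot, its founding member, which was not on the list. Normalised counts of Amot were higher by a log2 fold change of 4.64 (adjusted p = 1.17e-07 by edgeR) in LATS1/2-KO and 4.91 (adjusted p = 7.69e-08) in LATS1/2-Sox9-KO, more than those of Amotl1 and Amotl2. Its share of the family's level per kb was 9.31% ± 0.626 (SD, n = 3) in control, 42.4% ± 7.53 in LATS1/2-KO and 40.3% ± 2.27 in LATS1/2-Sox9-KO. The share of Amotl2 went from 71.9% ± 5.72 to 48.3% ± 6.51 and 51.8% ± 2.12, while its level rose. The share of Amotl1 was 18.8% ± 5.98, 9.32% ± 1.05 and 7.85% ± 0.595.

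**Figure D3:**
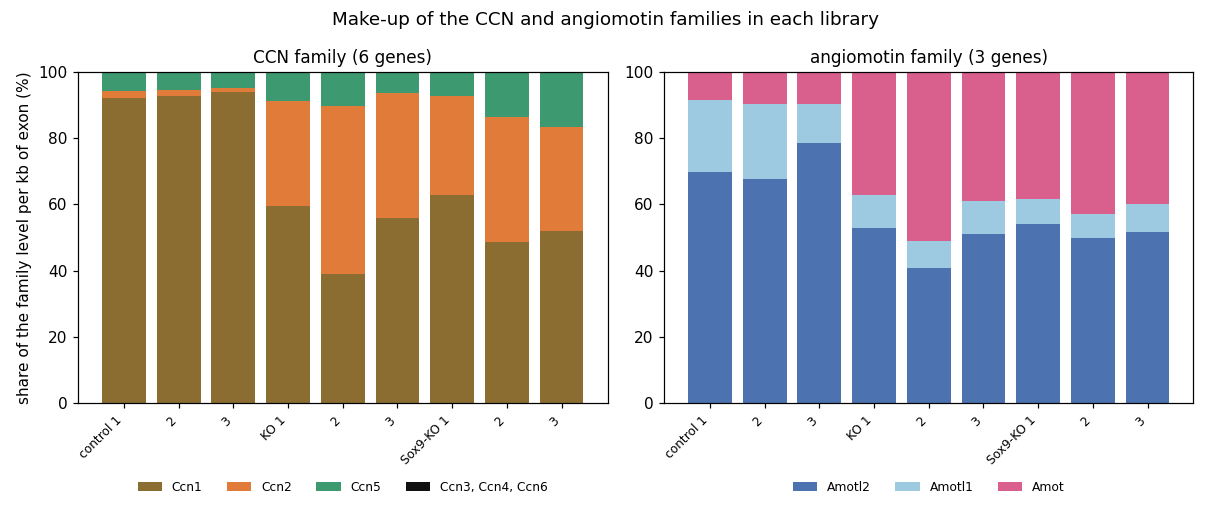
Stacked bars of the share, in percent, that each gene takes of the summed level per kb of exon of the CCN family (left) and the angiomotin family (right), 1 bar per library. Ccn1 fills at least 92.2% of the CCN bars in control and at most 62.8% in the deletion genotypes, where Ccn2 takes 30% to 50.6%, and the share of Amot is at least 37.3% in the deletion genotypes.

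Among other relatives, Ajuba belongs to a family of LIM proteins with Limd1 and Wtip and is related to zyxin. Wtip (log2 fold change 1.56 in LATS1/2-KO, 1.28 in LATS1/2-Sox9-KO), Zyx (1.37 and 1.56) and Fblim1 (3.92 and 4.07), which encodes a LIM adaptor of integrin-based adhesions, were called higher in both comparisons with control. Limd1 had log2 fold changes of -0.96 (adjusted p = 0.000179 by edgeR) and -0.75, which passed the adjusted p but not the fold threshold. Trip6 (0.61 and 0.47) and Lpp (-0.51 and -0.52) were likewise under the fold threshold. In all, 4 of the 9 tested relatives were called higher in LATS1/2-KO over control and none lower, where 17.1% and 17.5% of all genes tested were called. Exons of Zyx overlap 236 bases of Epha1 on the opposite strand, so its counts are less certain. The same holds for other genes named below. Among them are Fgfr2 (314 exonic bases shared with Ctbp2 on the same strand) and, with genes of the opposite strand, Notch3 (488), Gadd45a (337), Jun (232) and Junb (173).

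A list of 18 further YAP/TAZ targets, the remainder of a signature drawn from human cancers, was read beside the 9 genes. Foxf2, with 0 to 11 counts per library, did not pass the filter. Of the 17 tested, 10 were called higher and 5 lower in LATS1/2-KO over control, with a median log2 fold change of 1.84, beside 17.1% and 17.5% of all genes tested. The same numbers of genes, 10 and 5, were called for LATS1/2-Sox9-KO, with a median of 1.98, beside 17.8% and 19.6% of all genes. Fjx1, which encodes a secreted regulator of Fat signalling, had the highest value in LATS1/2-KO (5.40, adjusted p = 8.35e-07 by edgeR), and Ptpn14 (1.84) and Axl (1.97) lay nearest to the median. Gadd45a, a stress gene of growth arrest, had the lowest value (-1.85, adjusted p = 0.00118). The other genes called lower were F3 (-1.81), Dock5 (-1.74), Arhgef17 (-1.09) and Rbms3 (-1.07), which are named after their values were seen. Lats2 (0.50, adjusted p = 0.0571) and Crim1 (0.45, adjusted p = 0.114) were not called in LATS1/2-KO over control. None of the 17 was called between the deletion genotypes by edgeR, beside 3.71% of all genes, with Rbms3 passing the adjusted p alone (-0.64, adjusted p = 0.0299). The targets outside the 9 genes therefore included 5 with a change opposite to that of Ccn1, Ccn2 and Ankrd1.

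The factors that act on these genes did not move together. Tead1 (log2 fold change 1.77 in LATS1/2-KO, 1.71 in LATS1/2-Sox9-KO) and Tead4 (2.29 and 2.67) were called higher than in control, whereas Tead2 (-2.35 and -3.64) and Tead3 (-1.40 and -1.37) were called lower. Yap1 was lower by less than 2-fold (-0.65, adjusted p = 0.00339 by edgeR, and -0.78), and Vgll4, which competes with YAP for TEAD, was not called (0.11 and -0.20). Wwtr1, which encodes TAZ, had log2 fold changes of 0.43 (adjusted p = 0.0211) and -0.22 (adjusted p = 0.2). These are RNA levels, and the phosphorylation and location of YAP and TAZ were not measured in these libraries.

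**Figure D4:**
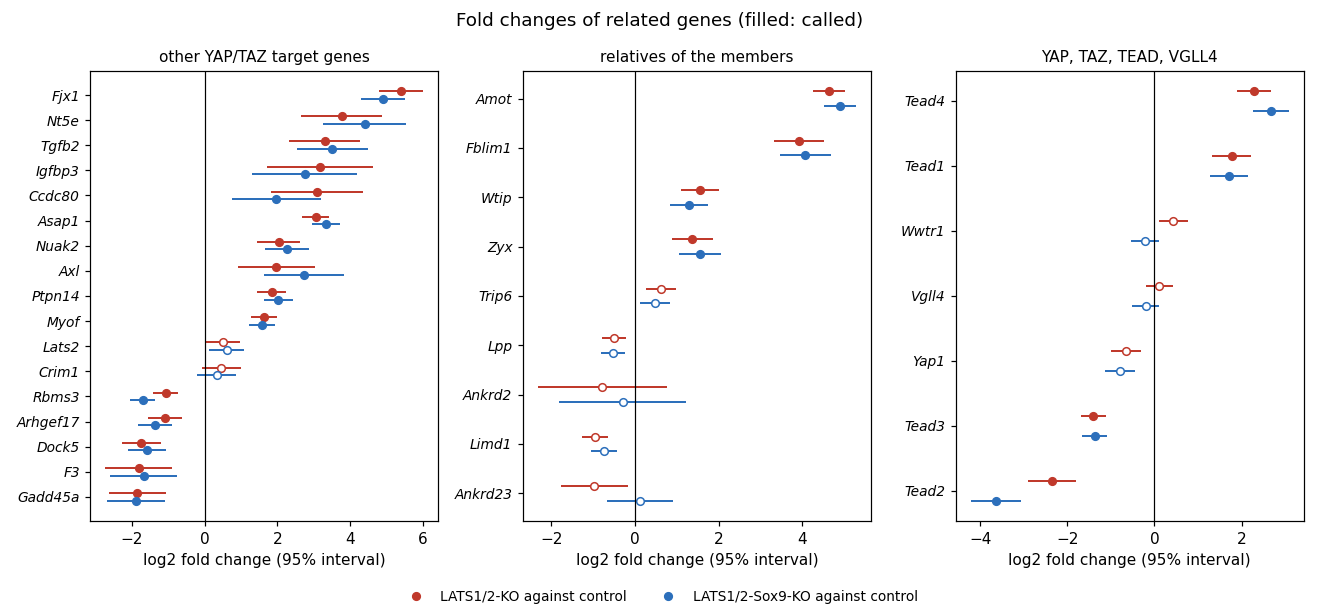
Log2 fold changes with 95% intervals over control of the 17 tested further targets, 9 tested relatives and 7 genes of YAP, TAZ, TEAD and VGLL4, with red for LATS1/2-KO, blue for LATS1/2-Sox9-KO and filled points for called genes. Of the further targets, 10 lie above and 5 below 0 as called genes in LATS1/2-KO, and the TEAD genes fall on both sides.

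Receptors that bind CCN proteins were counted from a list of 12. In LATS1/2-KO over control, 2 were called higher and 6 lower, beside 17.1% and 17.5% of all genes tested. Itgb1, the common beta chain of many integrins, was called higher (log2 fold change 2.00, adjusted p = 3.11e-06 by edgeR), as was Itgb2 (1.28), an integrin chain of leukocytes. Lrp1 (-2.86), Fgfr2 (-2.71), Sdc4 (-1.35) and Itgb5 (-1.31), a lipoprotein receptor, a growth factor receptor, a heparan sulfate proteoglycan and a partner of the alpha V chain, were among those called lower. In LATS1/2-Sox9-KO over control 2 were called higher and 7 lower, beside 17.8% and 19.6% of all genes, and none was called between the deletion genotypes, beside 3.71%.

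For each tested gene the 2 genes with the most similar pattern were sought among 11863 candidates, by the root mean square difference of centred log2 values over the 9 libraries. The closest pair overall was Amotl2 with Actn1 (0.131), which encodes an actin crosslinker. Ajuba was closest to Plcxd2 (0.183) and Asap1 (0.199), Amotl1 to BC030867 (0.188) and Dctd (0.201), Ccn1 to Snx18 (0.198) and Otud1 (0.222), and Ccn5 to Lpcat2 (0.233) and Pstpip2 (0.250). The genes of largest change had looser neighbours, which were Vgll3 (0.429) and Eprn (0.519) for Ankrd1, Cald1 (0.507) and Igf2bp3 (0.520) for Ccn2, and Colec12 (0.705) and Cdkn2a (0.732) for Ccn4. For Amotl2 the second was AI987944 (0.152). All these values share the same 9 libraries, and most of the likeness is the step from control to the deletion genotypes.

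Because Ccn1 is an immediate early gene, genes of the dissociation response were read beside it. Their summed normalised count was 1145900, 992828 and 1288110 in control, 369992, 368830 and 351675 in the libraries labelled LATS1/2-KO, and 516535, 344143 and 305660 in those labelled LATS1/2-Sox9-KO. Of the 11 genes, 8 were called lower and none higher in LATS1/2-KO over control, beside 17.5% and 17.1% of all genes tested, led by Nr4a1 (-3.02), Fosb (-2.81), Egr1 (-2.23), Jun (-2.10), Junb (-1.53) and Ier2 (-1.30). In LATS1/2-Sox9-KO over control 8 were called lower and 1 higher, beside 19.6% and 17.8% of all genes. The latter was Dusp1, a phosphatase of MAP kinases (1.61, adjusted p = 0.000102 by edgeR), which in LATS1/2-KO had a log2 fold change of 0.98 (adjusted p = 0.0023), short of the fold threshold and with no overlap with control. Dusp1 is named after its values were seen. Among the libraries labelled LATS1/2-Sox9-KO, replicate 1 had both the highest sum of this list and the highest Ccn1, as had replicate 3 among the control libraries. In those labelled LATS1/2-KO it was the other way, since replicate 3 had the lowest sum and the highest Ccn1. The part of this response in the levels of Ccn1 was not tested.

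Of 11 luminal markers, none was called higher and 5 lower in LATS1/2-KO over control, and 2 higher and 7 lower in LATS1/2-Sox9-KO. The shares of all genes tested that were called higher and lower, against which this and the following marker counts can be read, were 17.1% and 17.5% for LATS1/2-KO and 17.8% and 19.6% for LATS1/2-Sox9-KO. Krt18, a keratin of luminal cells, was the most abundant gene of that list at mean normalised counts of 248376 in control, 406610 in LATS1/2-KO and 715645 in LATS1/2-Sox9-KO. The genes called lower in LATS1/2-KO, named after their values were seen, were the hormone receptor genes Pgr (-5.91), Prlr (-4.81) and Esr1 (-3.50), with Foxa1 (-3.56) and Krt19 (-1.03). Pgr had raw counts of 47, 16 and 49 in the libraries labelled LATS1/2-Sox9-KO. The part of this change of luminal markers in the levels of the 9 genes was not tested.

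The summed count of 9 basal markers was 5726 ± 700 (SD, n = 3) in control, 192974 ± 62534 in LATS1/2-KO and 243247 ± 116780 in LATS1/2-Sox9-KO, led by Krt14 in the deletion genotypes and by Trp63 in control. Trp63, a defining factor of basal cells, was lower in both (-4.82 and -4.19), and Krt5 had a log2 fold change of 0.06 (adjusted p = 0.935 by edgeR) in LATS1/2-KO. Of the 9 basal markers, 4 were called higher and 3 lower in LATS1/2-KO over control (34.6% of all genes were called either way), with a median log2 fold change of 0.64. In LATS1/2-Sox9-KO 3 were called higher and 4 lower (37.4% of all genes), with a median of -0.69. The part of cells with basal markers in the levels of the 9 genes was not tested.

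Cells outside the epithelium are known to express Ccn1, Ccn2 and Ccn5 at high levels, so their markers are given as well. The summed normalised count of 8 fibroblast markers was 5255 ± 3499 (SD, n = 3) in control, led by Dcn, 3379 ± 2491 in LATS1/2-KO and 3007 ± 1309 in LATS1/2-Sox9-KO, both led by Col1a1. In LATS1/2-KO over control 3 of the 8 were called higher (Col1a1 1.90, Col1a2 2.31 and Lum 2.62) and 1 lower (Dcn -2.24). Lum had raw counts of 3, 5 and 18 in control and passed the filter only through the deletion groups. Its call is therefore not evidence of a change. In LATS1/2-Sox9-KO 2 were called higher and 2 lower, beside 17.8% and 19.6% of all genes. The sum of 7 endothelial markers came to 616 ± 179, 771 ± 70.8 and 679 ± 321. It was led by Pecam1 in control and LATS1/2-KO and by Kdr in LATS1/2-Sox9-KO. Pecam1 was not called over control (-0.26 and -0.73). In LATS1/2-KO 1 of the 7 was called higher and none lower, and in LATS1/2-Sox9-KO 1 higher and 1 lower. The gene called higher was Kdr, a receptor for VEGF (2.43 and 3.37), with mean normalised counts of 25.3, 136 and 261. Tek was called lower in LATS1/2-Sox9-KO (-1.48). With raw counts of 26, 2 and 35 in control, Kdr passed the filter only with the deletion groups. Its calls are therefore not evidence of a change. The members called in these lists, other than the most abundant, are named after their values were seen. The 5 pericyte markers summed to 19645 ± 2562 in control and to 3103 ± 1284 and 3556 ± 417 in the deletion genotypes, nearly all of it from Notch3. The others had mean normalised counts in control of 144 (Rgs5), 10.1 (Abcc9), 4.73 (Cspg4) and 0.378 (Kcnj8), so the sum follows Notch3. In LATS1/2-KO over control Notch3 (-2.70) and Rgs5 (-2.28) were called lower and Cspg4 higher (2.34), which had 1 to 6 raw counts in control and passed the filter only through the deletion groups, and in LATS1/2-Sox9-KO 2 were called lower and none higher. The 7 immune markers summed to 867 ± 211, 3137 ± 1098 and 3960 ± 659, with Cd3e at 0 in all 9 libraries. They were led in control by Cd68 and in the deletion genotypes by Csf1r, the receptor of a macrophage growth factor. Csf1r was the one called of the 5 immune markers tested (3.87 and 4.35), and without it the other 6 summed to 709 ± 170, 826 ± 584 and 722 ± 133, with overlap of all 3 groups. Of the 5774 exonic bases of Csf1r, 873 overlap Hmgxb3 on the opposite strand, so its counts are less certain. The part of stromal and immune cells in the levels of the 9 genes was not tested.

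Adipocyte transcripts set some libraries apart within the deletion genotypes. The summed normalised count of 5 adipocyte markers was 273, 184 and 289 in control, 484, 3497 and 1639 in the libraries labelled LATS1/2-KO, and 86.3, 1207 and 1078 in those labelled LATS1/2-Sox9-KO. Fabp4 was the most abundant of them in every group. Adipoq, Cidec and Lep, with 0 to 3 raw counts in control, passed the filter on low counts only through the deletion groups, so their calls are not counted. Lep had raw counts of 5 to 127 in the libraries of the deletion genotypes, where Adipoq and Cidec overlapped control. Fabp4 was called higher in LATS1/2-KO over control (2.6, adjusted p = 0.0304 by edgeR), without overlap, and not in LATS1/2-Sox9-KO (1.45, adjusted p = 0.176). LATS1/2-KO replicate 2, with the highest sum, also had the highest Ccn2, Ccn5 and Ankrd1 of its group, and the lowest Ccn4, Amotl1, Amotl2 and Ajuba. Leaving out the 4 libraries of high Adipoq or Cidec keeps 1 library of each deletion genotype, whose spread is taken from the controls. The log2 fold changes in LATS1/2-KO over control were then 1.17 for Ccn1, 6.08 for Ccn2, 8.46 for Ccn4 and 2.5 for Ccn5. They were 9.44 for Ankrd1, 1.41 for Amotl1, 1.94 for Amotl2 and 3.49 for Ajuba.

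**Figure D5:**
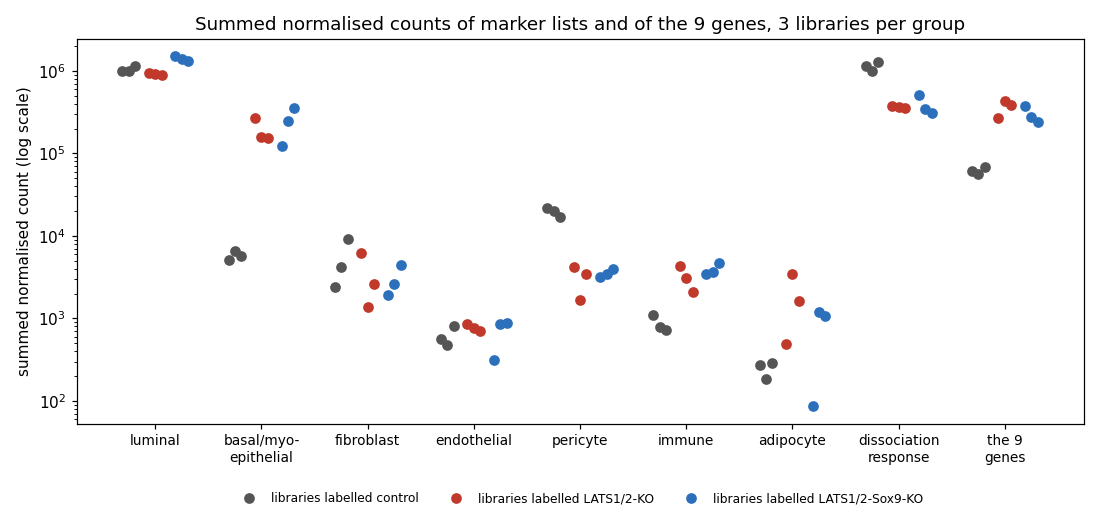
Summed normalised counts (log axis) of the listed markers of 7 cell types, of the dissociation response and of the 9 genes in each library, coloured by genotype. The sum of the 9 genes is higher in all 6 libraries of the deletion genotypes than in control, as are those of the basal markers and, through Csf1r, of the immune markers, the sum of the dissociation response is lower, and the adipocyte sum spreads from 86.3 to 3497 within the deletion genotypes.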

How the data were processed

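Reads were aligned by the authors to mm10 with STAR 2.6.0c and counted per Ensembl gene with featureCounts (Subread 1.6.2) from uniquely aligned proper pairs of the same strand (the kit does not mark strand), without mitochondrial genes. The deposited values are raw counts per gene in 9 libraries, with no replicates pooled. Total counts, from 44167762 to 61967651, keep counting error small for all but the lowest genes, and the 3 libraries per group set the precision.

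Counts were filtered with filterByExpr, normalised by TMM and fitted with edgeR 4.0.16 in R 4.3.3 (quasi-likelihood test) as 3 group means over all 9 libraries. P-values were adjusted by Benjamini-Hochberg over 19357 genes. Standard errors were derived from the F statistic. Levels per kb used exon lengths of GENCODE M21 on GRCm38. The 346 genes without a symbol were kept in the fit. The code was tested on simulated counts. DESeq2 1.42.0 and the other alternatives are given with their effects. Libraries of a group differed by more than sampling noise, with a chi-square per gene of 17.4 to 139.

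The 9 genes and all lists were chosen with earlier results of these data known, and the lists were written from general knowledge. Named genes were the 9 genes, the targeted genes, all relatives and TEAD-related genes, the extreme and the most central further targets, the largest called changes of the receptor and dissociation lists, the most abundant marker of each cell type, and the 2 nearest patterns (mean normalised count of at least 100, log2 of the count plus 1). Samples were grouped by their labels. Reads and deleted exons were not analysed here.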

Additional observations from a re-analysis of the deposited data

Results flagged for a closer look

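For 11 of the 114 tested genes of all lists (9.65%, beside 6.45% of all genes tested), the difference from control was not the same in the LATS1/2-Sox9-KO and the LATS1/2-KO genotypes, by edgeR's test of the difference between them at an adjusted p of at most 0.05. Of these, 6 were also past the fold threshold, as were 3.71% of all genes. Of the genes of YAP, TAZ and TEAD, Tead2 was lower in LATS1/2-Sox9-KO by -1.29 on the log2 scale (adjusted p = 0.0142, standard error 0.23) and was past the fold threshold, and Wwtr1 differed by -0.65 (adjusted p = 0.0251, standard error 0.14). Of the further targets, Rbms3 differed by -0.64 (adjusted p = 0.0299, standard error 0.14). Among luminal markers, Pgr was lower by -3.43 (adjusted p = 0.0136), and Epcam (-0.56, adjusted p = 0.0164), Krt18 (0.82, adjusted p = 0.00517) and Krt8 (0.68, adjusted p = 0.0129) passed the adjusted p but not the fold threshold. The basal markers Acta2 (-1.34, adjusted p = 0.0135), Cnn1 (-2.09, adjusted p = 0.00149) and Oxtr (-2.55, adjusted p = 0.0345) and the endothelial marker Tek (-2.27, adjusted p = 0.0141) were lower and past the fold threshold. In each of the 11, the libraries labelled LATS1/2-Sox9-KO did not overlap those labelled LATS1/2-KO. None of the 8 tested YAP/TAZ targets of the list passed that test.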

How the results depend on the processing

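Over control, every log2 fold change of the 8 tested genes kept its sign under each alternative that was run, and 156 of 159 values for LATS1/2-KO and 157 of 159 for LATS1/2-Sox9-KO stayed on the same side of the thresholds. The exceptions were Ccn1 (1.45, adjusted p = 0.0759) and Amotl1 (1.42, adjusted p = 0.0893) for LATS1/2-KO and Ccn1 (1.19, adjusted p = 0.272) for LATS1/2-Sox9-KO when edgeR's glmTreat tested against a fold change of 2, Amotl1 (1.41, adjusted p = 0.0526) for LATS1/2-KO without the 4 libraries with adipocyte genes, and Ccn1 (0.82) for LATS1/2-Sox9-KO without its replicate 1. With glmTreat, 1962 genes were called higher and 2043 lower for LATS1/2-KO, 2240 and 2468 for LATS1/2-Sox9-KO, and 18 and 14 between the deletion genotypes, and the further targets called lower for LATS1/2-KO were 3.

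Between the deletion genotypes, DESeq2 called 510 genes higher and 750 lower, against 301 and 418. Leaving out each library in turn gave 121 to 497 higher and 78 to 582 lower, and 0 to 1 of the 8 genes called lower. That gene was Ccn2 (-1.07) without LATS1/2-KO replicate 1. The following were chosen after seeing the data. Without the 4 libraries with adipocyte genes 52 genes were higher and 24 lower between the 1 library left of each, with Ccn1 at 0.61, Ccn2 at 0.46 and Ccn4 at -1.37 (adjusted p = 0.409). Control replicate 3 and LATS1/2-KO replicate 1 were the libraries farthest from the others of those 2 groups. Without them 568 were higher and 701 lower, 1 of the 8 genes (Ccn2, -1.07, adjusted p = 0.027) was called lower and 1 further target higher. LATS1/2-Sox9-KO replicate 1 was kept in that fit. Its chi-square per gene was 84.2 and 119 against replicates 2 and 3, which had 17.4 between them. Signs of small differences turned for Ccn4 (0.60 without LATS1/2-KO replicate 1, alone or with control replicate 3), Ccn5 (-0.03 with upper-quartile factors, -0.18 without LATS1/2-KO replicate 1, alone or with control replicate 3, -0.09 without LATS1/2-KO replicate 3, -0.01 and -0.04 without LATS1/2-Sox9-KO replicates 2 and 3) and Ankrd1 (-0.01 and -0.09 without LATS1/2-KO replicates 1 and 3, and -0.01 without LATS1/2-KO replicate 1 and control replicate 3). Leaving out each library in turn, Ccn4 ranged from -0.61 to 0.60, Ccn5 from -0.18 to 0.44 and Ankrd1 from -0.09 to 0.46. The cause was not tested.

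With the replicate number as a block, 8 of 8 genes, Ccn4 included, were called over control in both comparisons (Ankrd1 9.66 and 9.80). In the fit without a block, 17.1% and 17.8% of all genes tested were called higher over control. None of the 8 was called between the deletion genotypes with the block, where Ccn4 was 0.05. Same-numbered libraries of the groups correlated at -0.0594 to 0.15 in their deviations. In LATS1/2-Sox9-KO against control the same-numbered library was the best match for replicates 1, 2 and 3 (0.0362, 0.0162 and 0.0169). Between the deletion genotypes it was so for replicates 1 and 2, and in LATS1/2-KO against control for none. Correlations this small cannot decide whether the numbers pair the libraries. Ccn4 could not be fitted where at least 10 counts were required in every library. Other scaling factors moved the median of all genes by less than 0.1 on the log2 scale. Depth limits Ccn3, Ccn4 in control and Ccn6, and 3 libraries per group limit the rest.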
